A study of Mus musculus with 4 samples.

Results

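The Nr4a nuclear receptors are the 3 genes Nr4a1, Nr4a2 and Nr4a3, chosen by name out of 20211 genes listed in every library. Each was counted in every library and in 5 neuronal classes of mouse hippocampus. The study sequenced RNA from single nuclei in 4 libraries, 1 for each genotype. These were wild type, total (global) MAGL-KO, astrocyte-specific MAGL-KO and neuron-specific MAGL-KO. MAGL, encoded by Mgll, is the enzyme that breaks down most of the endocannabinoid 2-arachidonoylglycerol in brain, and the series title concerns excess endocannabinoid in neurons and cognition. The labels give no age, sex, strain, number of animals, Cre driver or deleted exon, and no agent besides the genotype. With 1 library for each genotype there was no replicate, so no test of genotype was possible. Every interval below is a 95% interval that covers counting error only, and the 3 knockout ratios share 1 wild-type library.

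Nr4a1 (Nur77), Nr4a2 (Nurr1) and Nr4a3 (Nor1) are orphan nuclear receptors: transcription factors that act without a known hormone and whose activity is set mainly by how much of them is made. Neuronal firing, calcium entry and cAMP switch on their transcription within minutes through CREB, which places them among the immediate early genes, and in hippocampus they are known for a part in the consolidation of memory. They bind DNA as monomers at the NBRE, as dimers among themselves, and Nr4a1 and Nr4a2 also as dimers with the retinoid X receptors. Nr4a2 is besides a lasting marker of dopamine neurons, of deep cortical layers and of claustrum.

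The genes lie on 3 chromosomes of the GRCm38 build, which the submitters' processing notes call mm10. Nr4a1 (ENSMUSG00000023034.7) spans chr15:101254269-101274795 on the + strand, Nr4a2 (ENSMUSG00000026826.13) chr2:57106830-57124003 on the - strand, and Nr4a3 (ENSMUSG00000028341.9) chr4:48045153-48086447 on the + strand. Annotated exons cover 17.1%, 23.6% and 14.5% of the 3 genes. The stretches before the RefSeq start sites (GRCm38.p6) are shown because they hold CREB-type letters, whose part in switching on these genes was not tested. Capitals mark TGACG, the core of the cAMP response element, or its reverse complement CGTCA.
Nr4a1, chr15:101266596-101266845, + strand: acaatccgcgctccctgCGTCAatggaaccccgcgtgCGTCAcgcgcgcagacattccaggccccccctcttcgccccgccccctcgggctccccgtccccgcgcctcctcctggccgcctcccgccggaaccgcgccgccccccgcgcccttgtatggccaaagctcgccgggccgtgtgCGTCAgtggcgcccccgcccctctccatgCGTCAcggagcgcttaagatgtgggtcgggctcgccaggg
Nr4a2, chr2:57124004-57124253, - strand: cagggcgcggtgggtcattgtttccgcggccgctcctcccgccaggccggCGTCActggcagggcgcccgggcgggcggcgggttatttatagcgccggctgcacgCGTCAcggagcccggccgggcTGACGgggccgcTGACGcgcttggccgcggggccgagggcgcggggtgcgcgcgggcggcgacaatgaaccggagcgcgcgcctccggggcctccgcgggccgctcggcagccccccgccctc
Nr4a3, chr4:48045067-48045096, + strand: aggagggTGACGtagcgtcccatgtCGTCA

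All 3 members matched the RefSeq promoter table, whose windows run from 250 bases before to 50 bases after each start. Each member's window held 4 matches to TGACG, counted on both strands. In Nr4a1 they lay from -233 to -40 bases relative to the start, in Nr4a2 from -200 to -111 and in Nr4a3 from -231 to -147. Of 32851 windows of the same length, 20.8% held at least 1 match and 0.231% held at least 4. The full palindrome TGACGTCA, which contains the shorter letters, was in 0 of the 3 windows and in 1.79% of all windows. The NBRE letters AAAGGTCA were likewise in 0 of the 3 windows, against 1.51% of all, and the CArG box of serum response factor in 0, against 1.63%. These matches describe the letters of the windows and show no binding. The printed Nr4a1 stretch lies inside an intron of a longer annotated transcript, and most of the Nr4a3 window lies in its annotated first exon, of which nothing is printed.

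After filters the libraries held 8968 wild-type, 23625 total KO, 10044 astrocyte KO and 8682 neuron KO nuclei. Before the filters used here a library held from 81623644 to 193307038 UMIs (counted molecules) over all its deposited barcodes. The total KO library stood apart. It had 31243 barcodes against 8945 to 10731, the lowest median UMIs a nucleus (5455 against 7448 to 8903), and 23.5% of its barcodes were called doublets against 1.72% to 5.68%, at an assumed rate that itself grows with the number of barcodes. It also held 489 nuclei with medium spiny neuron markers, a striatal type, against 2 to 30 in the others. Judged by Xist and Y-linked UMIs, 81.1% of its nuclei were male and 0.0127% female, while 41.6% to 46.7% were male and 41.0% to 47.0% female in the other 3. Those 3 libraries therefore pooled at least 2 animals each. Barcodes shared by 2 or more libraries numbered 1580 of 58693. Mgll itself was at 107 UMIs per 1000000 (CPM) in wild type, 86.4 in total KO, 108 in astrocyte KO and 109 in neuron KO over all kept nuclei. In astrocytes, from 25 to 102 nuclei a library, it was at 429, 314, 416 and 561. Dentate granule neurons had 128 in neuron KO and 122 in wild type, and CA1 neurons 67.3 and 67.1. In the same order CA2/CA3 neurons had 125 and 133, subicular or cortical neurons 129 and 128, and inhibitory neurons 118 and 119. Because the deleted exons are not named in the labels, these counts over the whole gene do not check the genotypes, and each library is called below by its label.

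The 5 classes were set for each nucleus by marker genes, none of which is an Nr4a gene, and hold 29397 of 51319 nuclei. They are ranges on marker scores rather than types: 34.8% of the nuclei passed no gate, and 140 to 786 nuclei a class lay within 0.1 score units above the gate. The share that passed no gate was 28.9% in wild type, 39.3% in total KO, 31.3% in astrocyte KO and 32.6% in neuron KO. In wild type these nuclei had Nr4a1 at 88.2 CPM, Nr4a2 at 69.3 and Nr4a3 at 50.9. The 5 classes therefore do not hold all of the Nr4a UMIs. Own markers led in 4 classes, with medians of 32.1 UMIs per 10000 in dentate granule, 15.7 in CA1, 52.8 in subicular or cortical and 36.8 in inhibitory nuclei. In CA2/CA3 nuclei the class's own 8 markers had a median of 20.4, below the 22.2 of the 10 subicular or cortical markers, so the CA2/CA3 label rests on weaker ground. Unsupervised clusters carrying the same name held 97.9% of the dentate granule, 79.3% of the CA1, 65.7% of the CA2/CA3, 86.2% of the subicular or cortical and 72.6% of the inhibitory nuclei.

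Each member had its own order of classes, given here as UMIs of that gene per 1000000 UMIs (CPM) summed over the nuclei of a class in the wild-type library. Nr4a1 was at 103 in subicular or cortical neurons, 71.6 in CA1, 38.8 in CA2/CA3, 35.7 in inhibitory and 5.09 in dentate granule neurons. The step from CA1 to dentate granule neurons was 14.1-fold (11.2 to 17.8), while CA2/CA3 (34.4 to 43.7) and inhibitory neurons (32.2 to 39.4) did not differ beyond their intervals. Nr4a2 was at 129 in subicular or cortical neurons, 2.48-fold (2.26 to 2.73) above the 51.8 of CA1. It was at 23.7 in CA2/CA3, 10.9 in dentate granule and 8.71 in inhibitory neurons, and the last pair did not differ beyond counting error (0.799-fold, 0.617 to 1.03). Among the 5 classes Nr4a3 had its highest level in CA2/CA3 neurons, at 77.8, which was 1.51-fold (1.35 to 1.68) above CA1. It was at 58.2 in subicular or cortical neurons, 51.6 in CA1, 18.0 in inhibitory and 4.90 in dentate granule neurons. Outside these classes, the 30 wild-type nuclei with medium spiny neuron markers had Nr4a3 at 104 (68.3 to 151) on 27 UMIs. The 489 such nuclei of total KO had it at 17.1 (12.6 to 22.7) on 48 UMIs, so no rank of this type is read from the wild-type value. Granule neurons of wild type were thus the lowest class for Nr4a1 and Nr4a3, and inhibitory and granule neurons together for Nr4a2. The knockout libraries differed from this order in several places. Inhibitory Nr4a2 was below granule Nr4a2, at 0.308-fold (0.244 to 0.386) in total KO, 0.274-fold (0.179 to 0.409) in astrocyte KO and 0.314-fold (0.238 to 0.411) in neuron KO. In astrocyte KO Nr4a3 did not differ between these classes beyond its interval (1.06-fold, 0.743 to 1.51). Nr4a3 of subicular or cortical neurons was 1.13-fold (1.00 to 1.27) that of CA1 in wild type and 1.02-fold (0.926 to 1.12) in total KO. It was below CA1 in astrocyte KO (0.694-fold, 0.583 to 0.822) and neuron KO (0.835-fold, 0.757 to 0.920). CA2/CA3 and CA1 did not differ in Nr4a3 beyond the interval in neuron KO (1.04-fold, 0.952 to 1.15). In oligodendrocytes Nr4a1 and Nr4a3 had 0 UMIs in wild type and at most 10 in any library. Nr4a2 had 1 to 14 UMIs there, at 3.41, 6.07, 6.503 and 16.5 CPM in wild type, total KO, astrocyte KO and neuron KO, which is no lower than its inhibitory level in most libraries. Oligodendrocyte precursors of wild type had 32.0 CPM of Nr4a1 on 34 UMIs and 0 UMIs of Nr4a2. Fewer transcribing cells and less RNA per cell cannot be told apart in such sums.

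**Figure D1:**
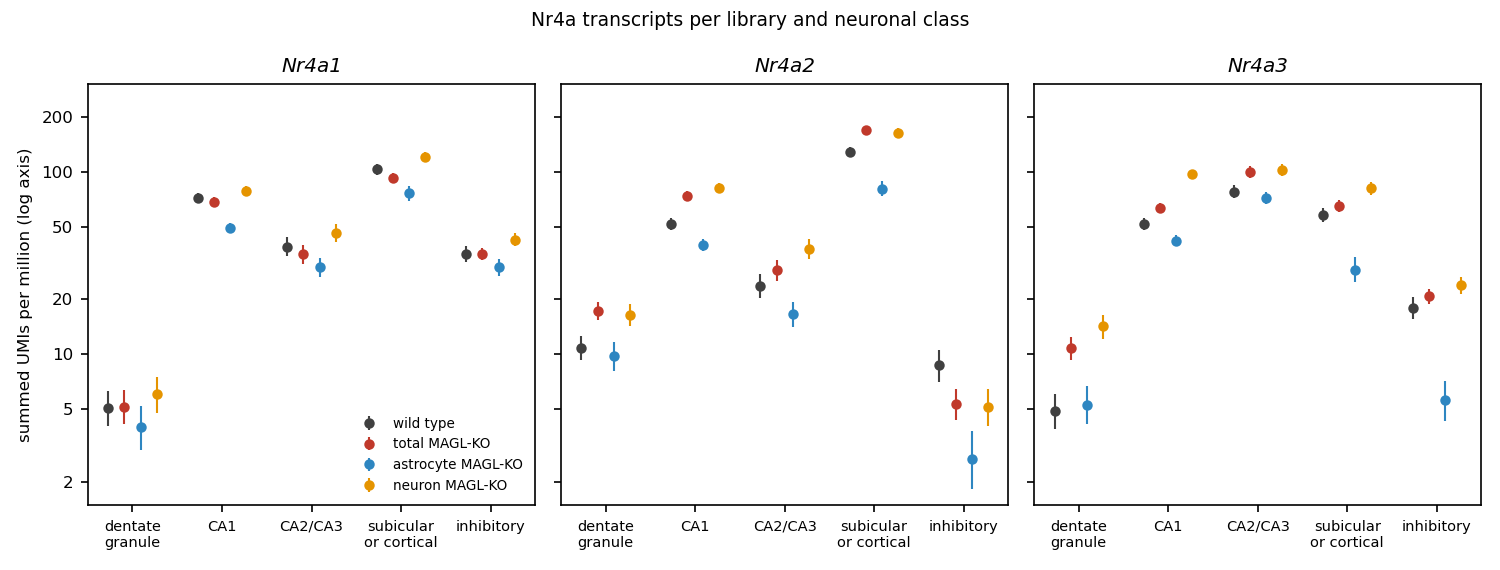
Summed UMIs per 1000000 of Nr4a1, Nr4a2 and Nr4a3 (log axis) in 5 neuronal classes, 1 point for each library; bars are 95% Poisson intervals that cover counting error only. Nr4a1 and Nr4a3 are lowest in dentate granule neurons, Nr4a2 is highest in subicular or cortical neurons, and the astrocyte KO library has the lowest point in every pair of gene and class except Nr4a3 in dentate granule neurons.

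Unsupervised clusters resolved these levels further. Over the 40 clusters with at least 100 nuclei, all libraries pooled, Nr4a1 ran from 3.10 to 182 CPM with a median of 44.0, Nr4a2 from 0.811 to 228 with a median of 21.4, and Nr4a3 from 1.55 to 107 with a median of 32.4. The Nr4a2 maximum was a subicular or cortical cluster of 3091 nuclei led by Ccn2, Arhgap25 and Rai14. Ccn2 is a marker of the deepest cortical layer. In that cluster Nr4a2 was at 201 in wild type, 246 in total KO, 121 in astrocyte KO and 292 in neuron KO. The Nr4a3 maximum was a CA2/CA3 cluster of 1902 nuclei led by Ifi203, Mndal and Cd109, where Nr4a3 was at 89.5, 129, 87.6 and 127 in the same order. Both clusters had the total and neuron KO libraries above the other pair. Nr4a2 was lowest in an inhibitory cluster led by Egfr, Ndnf and Has2os, at 0.811.

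Between neuron KO and astrocyte KO, Nr4a3 differed more than the other members in 4 classes, by 2.32-fold to 4.25-fold, and less than them in CA2/CA3 neurons, by 1.41-fold. In dentate granule neurons it was at 4.90 CPM (3.89 to 6.10) in wild type, 10.9 (9.36 to 12.5) in total KO, 5.32 (4.14 to 6.73) in astrocyte KO and 14.2 (12.2 to 16.5) in neuron KO. Total and neuron KO lay above the other 2 libraries with no overlap of intervals. These are low levels, from 69 to 187 UMIs a library. Against wild type the ratio was 2.21-fold in total KO (log2 1.15, 0.76 to 1.54), 2.90-fold in neuron KO (log2 1.54, 1.15 to 1.94) and 1.08-fold in astrocyte KO (log2 0.12, -0.37 to 0.60). In CA1 neurons Nr4a3 was at 51.6 (48.0 to 55.5) in wild type, 63.7 (60.0 to 67.6) in total KO, 42.0 (39.0 to 45.2) in astrocyte KO and 97.5 (92.4 to 103) in neuron KO. The 4 CA1 intervals did not overlap. Neuron KO was 1.89-fold above wild type there (log2 0.92, 0.79 to 1.05) and 2.32-fold above astrocyte KO. In CA2/CA3 neurons the values were 77.8, 100.02, 72.2 and 102, with total and neuron KO above the other 2 libraries.

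In the remaining 2 classes Nr4a3 was lowest in the astrocyte KO library, as it also was in CA1 and CA2/CA3 neurons. In CA2/CA3 neurons the astrocyte KO interval overlapped that of wild type. Subicular or cortical neurons had 58.2 (53.0 to 63.7) in wild type, 64.9 (60.2 to 69.8) in total KO, 29.2 (24.9 to 33.9) in astrocyte KO and 81.3 (74.9 to 88.2) in neuron KO. Astrocyte KO was at 0.501-fold of wild type (log2 -0.997, -1.26 to -0.74). Inhibitory neurons had 18.0 (15.6 to 20.6), 20.8 (18.8 to 22.9), 5.63 (4.35 to 7.18) and 23.9 (21.5 to 26.6) in the same order. The astrocyte KO level was 0.313-fold of wild type (log2 -1.67, -2.10 to -1.26), and the neuron KO level was 4.25-fold above that of astrocyte KO. The wild-type inhibitory value leans on few nuclei: 15 of 1099 nuclei with 3 or more Nr4a3 UMIs held 46.0% of the UMIs, and 1 nucleus had 35.

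Nr4a2 was higher in total and neuron KO than in wild type in the excitatory classes, and lower in all 3 knockout libraries in inhibitory neurons. In CA1 it was at 51.8 CPM (48.1 to 55.6) in wild type, 73.8 (69.8 to 78.0) in total KO, 39.9 (37.0 to 43.0) in astrocyte KO and 81.8 (77.2 to 86.7) in neuron KO. Wild type lay between astrocyte KO below and the other 2 libraries above, without overlap. The log2 ratios were 0.51 (0.38 to 0.64) in total KO, -0.38 (-0.53 to -0.23) in astrocyte KO and 0.66 (0.53 to 0.80) in neuron KO. Granule neurons had Nr4a2 at 10.9, 17.3, 9.79 and 16.4, with log2 ratios of 0.67 (0.39 to 0.94), -0.16 (-0.50 to 0.18) and 0.59 (0.30 to 0.89). In subicular or cortical neurons it was at 129, 168, 80.8 and 163, with ratios of 0.39, -0.67 and 0.34, none with an interval that reaches 0. In CA2/CA3 neurons it was at 23.7, 28.9, 16.6 and 37.9, and the total KO ratio of 0.28 (-0.02 to 0.58) reached 0.

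The inhibitory neurons ran the other way. Nr4a2 was at 8.71 (7.07 to 10.6) in wild type, 5.33 (4.36 to 6.46) in total KO, 2.69 (1.83 to 3.81) in astrocyte KO and 5.17 (4.07 to 6.47) in neuron KO. Wild type was above all 3, on 97 UMIs against 31 to 104. Of the 97, 37 were in 6 of 1099 nuclei, 1 of which had 13, and astrocyte KO had 0 nuclei with 3 or more. The log2 ratios were -0.71 (-1.12 to -0.29), -1.70 (-2.33 to -1.10) and -0.75 (-1.21 to -0.30). The knockout levels here were below those in oligodendrocytes of the same libraries, which rest on 1 to 14 UMIs. Keeping called doublets turned the total KO ratio to 0.24. In this class 6 genes of heat shock and tissue dissociation had median log2 ratios of -0.29, -0.55 and -0.66, and their part in these ratios was not tested.

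Neuron KO and astrocyte KO differed by 1.41-fold to 1.60-fold for Nr4a1, the smallest of the 3 members in every class except CA2/CA3. In CA1 it was at 71.6 CPM (67.3 to 76.1) in wild type, 68.5 (64.7 to 72.6) in total KO, 49.3 (46.0 to 52.7) in astrocyte KO and 78.6 (74.1 to 83.4) in neuron KO. Astrocyte KO was apart from the other 3, at a log2 ratio of -0.54 (-0.67 to -0.41). The neuron KO ratio was 0.14 (0.01 to 0.26) and that of total KO -0.06 (-0.18 to 0.06). The other classes gave astrocyte KO ratios of -0.25 in inhibitory, -0.37 in CA2/CA3 and -0.44 in subicular or cortical neurons, and neuron KO ratios of 0.25, 0.25 and 0.22. In dentate granule neurons Nr4a1 was at 5.09, 5.17, 4.01 and 6.04, on 52 to 89 UMIs, and all 3 ratios had intervals that span 0. With called doublets kept, the total KO ratio there was 0.77. In the 5 classes the total KO ratios of Nr4a1 lay between -0.16 and 0.02, while those of Nr4a2 and Nr4a3 in the 4 excitatory classes lay between 0.16 and 1.15. In the 9273 total KO nuclei that passed no gate the ratio of Nr4a1 was -0.36 (-0.44 to -0.28). Those of Nr4a2 and Nr4a3 there were 0.13 (0.04 to 0.21) and 0.19 (0.09 to 0.29).

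**Figure D2:**
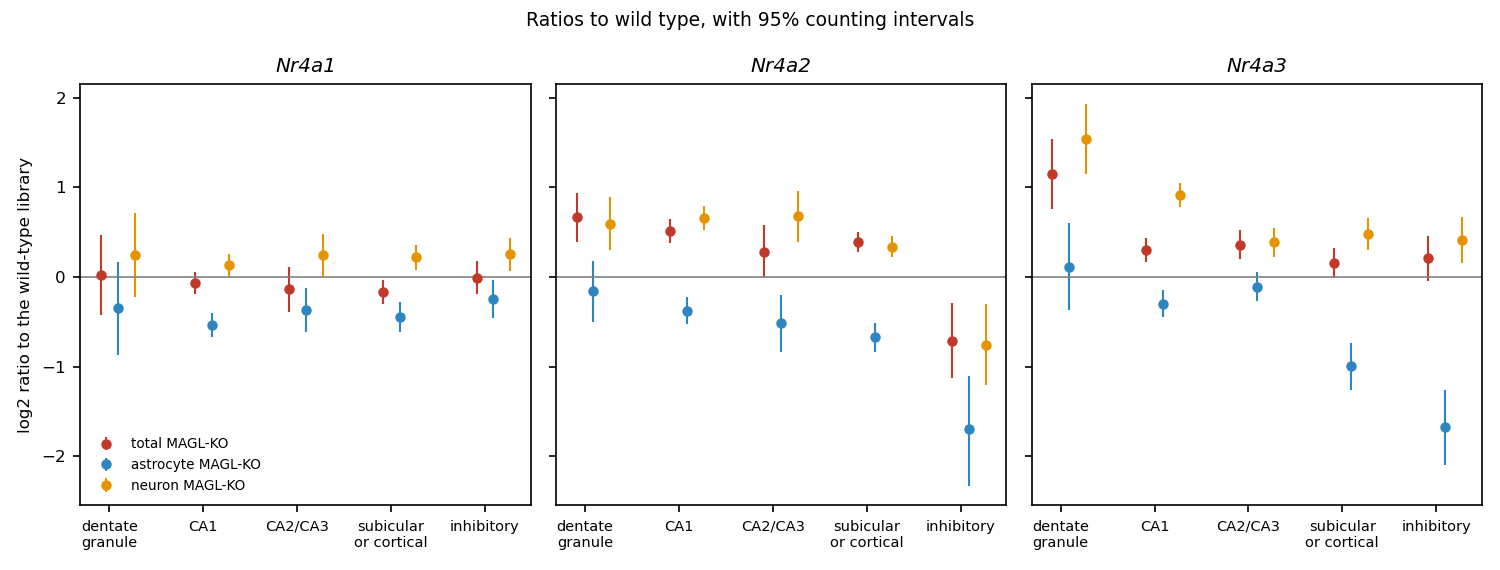
Log2 ratios of summed UMIs per 1000000 to the wild-type library for each member and class, with 95% counting intervals; the line marks no difference. In the excitatory classes the total and neuron KO points of Nr4a2 and Nr4a3 are above 0, and the astrocyte KO points of Nr4a1 and Nr4a2 are below 0.

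A ratio of at least 1.5-fold above wild type was met by Nr4a2 and Nr4a3 in dentate granule neurons of total KO, beside 1.36% of 13096 genes, and of neuron KO, beside 1.9%. In CA1 of neuron KO the same 2 members met it, beside 1.87% of 13289 genes, and in CA2/CA3 of neuron KO 1 member, Nr4a2, beside 2.79% of 11679. Ratios at least 1.5-fold below wild type were met by Nr4a2 and Nr4a3 in astrocyte KO, in subicular or cortical neurons beside 4.25% of 12136 genes and in inhibitory neurons beside 5.37% of 13740. In inhibitory neurons Nr4a2 also met it in total KO, beside 6.57%, and in neuron KO, beside 5.79%. In every other combination of class, library and direction the count was 0 of 3. The shares of all genes beside these zeros, first above and then below wild type, were as follows. For dentate granule neurons the share above was 2.28% in astrocyte KO, and the shares below were 6.22% in total, 4.89% in astrocyte and 4.86% in neuron KO. CA1 had 2.7% and 5.37% in total KO, 1.84% and 3.43% in astrocyte KO, and 4.64% below in neuron KO. CA2/CA3 had 2.45% and 5% in total KO, 1.8% and 3.21% in astrocyte KO, and 4.4% below in neuron KO. Subicular or cortical neurons had 1.64% and 4.8% in total KO, 2.59% above in astrocyte KO, and 2.48% and 4.23% in neuron KO. Inhibitory neurons had 3.17%, 2.79% and 2.48% above in total, astrocyte and neuron KO. The neuron KO library was highest and the astrocyte KO library lowest for all 3 members in CA1, beside 7.23% of genes, and in CA2/CA3, beside 8.81%. That order held for 2 members in subicular or cortical (8.99%) and inhibitory neurons (7.54%) and for 1 in dentate granule neurons (7.4%). The members were chosen with these contrasts known, so the counts are given as they are and nothing is drawn from them.

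Markers of other neuronal classes differed between libraries in some of these classes. The median log2 ratio of all genes with at least 100 UMIs lay between -0.06 and -0.01 in every class and knockout library. At least as many genes thus lay below wild type as above it, and nothing is drawn from the counts of markers above wild type. In CA1 nuclei the 10 subicular or cortical markers, which mark the class where Nr4a2 is highest, summed to 678 CPM in wild type, 791 in total KO, 684 in astrocyte KO and 670 in neuron KO. Of the 10, 8 were above wild type in total KO, 5 in astrocyte KO and 6 in neuron KO. Rorb, one of them and itself an orphan receptor, had log2 ratios of 1.86, 1.03 and 0.80. The 6 inhibitory markers in CA1 nuclei summed to 3.11, 16.3, 10.5 and 7.35 CPM. In inhibitory nuclei the 6 CA1 markers summed to 280, 406, 386 and 369 CPM, with 4, 6 and 3 of 6 above wild type. In dentate granule nuclei the 6 CA1 markers summed to 16.7, 17.5, 24.2 and 23.7 CPM, and the 10 subicular or cortical markers to 319 to 340. In CA2/CA3 nuclei the 7 granule markers summed to 45.4, 64.7, 33.9 and 76.0 CPM, the same order of libraries as Nr4a2 there, with 6, 3 and 6 of 7 above wild type. Nr4a2 itself was higher in CA2/CA3 than in granule neurons of every library, by 1.67-fold to 2.31-fold. In subicular or cortical nuclei the 6 inhibitory markers summed to 164, 141, 224 and 165 CPM, highest in astrocyte KO, where Nr4a2 and Nr4a3 were low. Glial markers also differed between libraries. In inhibitory nuclei the 6 oligodendrocyte markers summed to 56.1, 61.2, 28.9 and 42.1 CPM, lowest in astrocyte KO (0.516-fold, 0 of 6 above wild type). In dentate granule nuclei they summed to 544, 371, 469 and 450.5 CPM, and the 6 microglial markers to 51.6, 28.3, 41.2 and 31.4. Microglial markers of granule nuclei were 0.548-fold of wild type in total KO, with 0 of 6 above it. The part of these markers in the Nr4a ratios was not tested.

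Male and female nuclei of 1 library come from different animals, so they give a second reading inside 3 of the libraries. In dentate granule neurons Nr4a3 was at 5.56 CPM in male and 3.30 in female wild-type nuclei, 10.9 in the male nuclei of total KO, 6.10 and 4.05 in astrocyte KO, and 8.66 and 22.1 in neuron KO. The high neuron KO value was thus mostly female: the male to female log2 ratio was -1.35 (-1.87 to -0.84). Against wild type of the same sex the neuron KO ratio was 0.64 in males and 2.74 in females. Nr4a2 in the same neurons was at 11.8 in male and 21.2 in female neuron KO nuclei, against 11.3 and 10.5 in wild type. With male nuclei alone its neuron KO ratio was 0.07, while that of total KO was 0.61.

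In CA1 the neuron KO values were above wild type in both sexes. Nr4a3 was at 53.4 and 50.0 in male and female wild-type nuclei and at 84.3 and 106 in neuron KO, with 64.5 in the male nuclei of total KO. Nr4a2 was at 49.5 and 52.4 in wild type, 74.9 in total KO, and 73.4 and 87.9 in neuron KO. In astrocyte KO both sexes were below wild type for Nr4a1 (50.5 and 47.2 against 69.2 and 74.2) and for Nr4a2 (40.6 and 38.0). For Nr4a3 the male astrocyte KO nuclei, at 51.0, were near the male wild-type ones, and the female ones were at 37.3. In inhibitory neurons wild-type males had 26.4 and females 12.8 of Nr4a3, so that neuron KO, at 24.4 and 22.6, was below wild type in males and above it in females. The inhibitory astrocyte KO level was low in both sexes, at 6.54 and 3.81. In CA2/CA3 neurons of neuron KO, Nr4a2 was at 27.1 in male and 51.0 in female nuclei. Sex and animal cannot be told apart here, and the total KO library could be compared in male nuclei alone.

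**Figure D3:**
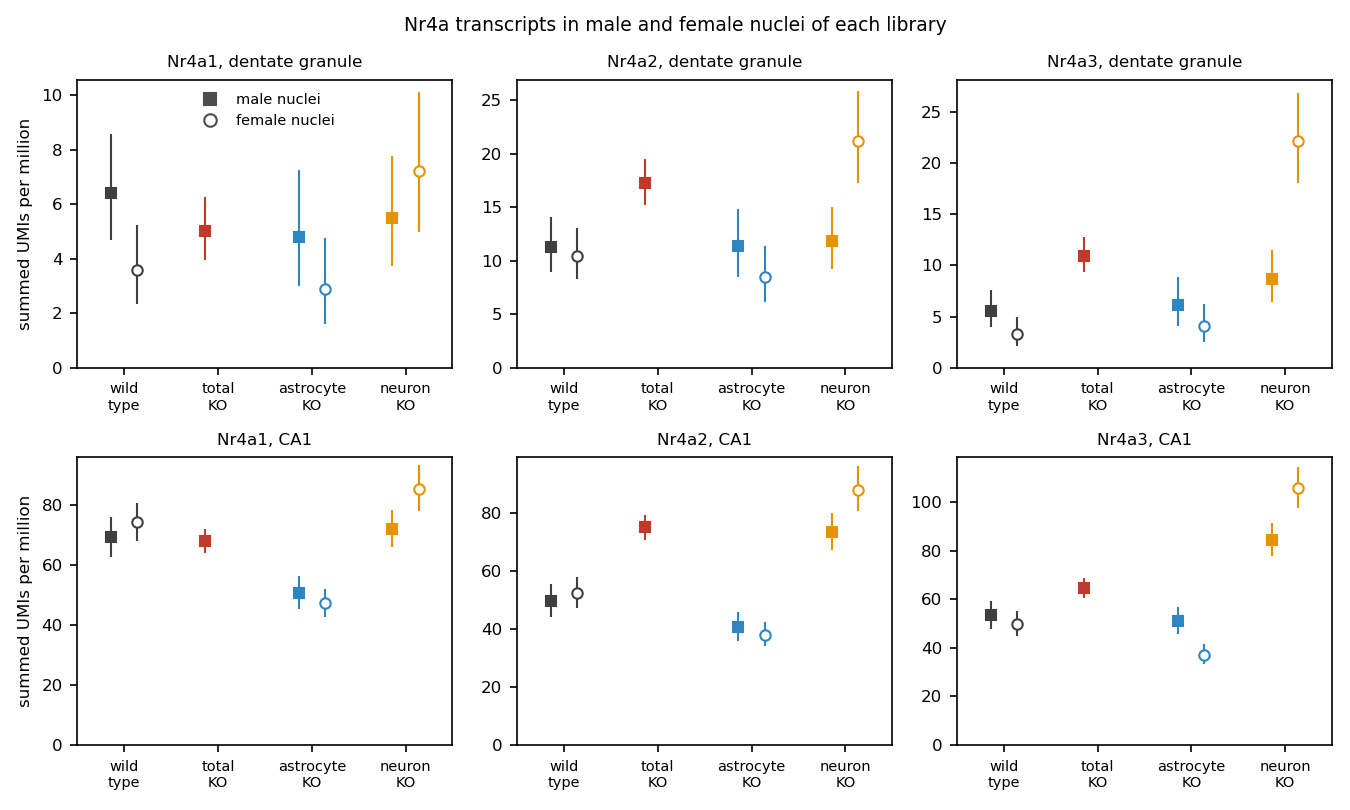
Summed UMIs per 1000000 of each member in male (squares) and female (circles) nuclei of each library, in dentate granule (top) and CA1 neurons (bottom); bars are 95% Poisson intervals and the total KO library has male nuclei only. In dentate granule neurons the female neuron KO nuclei stand at 22.1 for Nr4a3 against 8.66 in males, while in CA1 both sexes of neuron KO exceed both sexes of wild type for Nr4a2 and Nr4a3.

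Within the inhibitory class the members differed by subclass. Nr4a2 of the wild-type library was found mainly in nuclei with Pvalb-type markers, the fast-spiking basket and axo-axonic cells, at 16.2 CPM on 58 of the class's 97 UMIs. There it was at 9.04 in total KO, 4.33 in astrocyte KO and 3.34 in neuron KO, with log2 ratios of -0.84 (-1.44 to -0.25), -1.90 (-2.83 to -1.06) and -2.28 (-3.27 to -1.39). The lower Nr4a2 of the whole class was not seen in Sst-type nuclei, where it was at 2.79, 4.72, 2.74 and 4.78 on 8, 23, 8 and 19 UMIs. The log2 ratios there were 0.76 (-0.46 to 2.13) in total KO, -0.03 (-1.64 to 1.59) in astrocyte KO and 0.78 (-0.48 to 2.18) in neuron KO, all with intervals that span 0. In Lamp5-type nuclei Nr4a2 had 3, 6, 0 and 8 UMIs, at 2.22, 1.91, 0 and 3.54 CPM, and the neuron KO ratio was 0.68 (-1.38 to 3.22). Vip-type nuclei had 0, 1, 2 and 4 UMIs of Nr4a2, and the lower bound of the neuron KO log2 ratio was 0.04. The count of 0 in the 62 wild-type Vip-type nuclei has an upper bound of 9.58 CPM. Nuclei with Cnr1 CCK-type markers had, as the Pvalb-type did, values below wild type in all 3 knockout libraries, at 6.49, 0, 1.09 and 0.703 CPM on 6, 0, 1 and 1 UMIs. The upper bounds of their log2 ratios were -0.996 in total KO, 0.47 in astrocyte KO and -0.16 in neuron KO. For Nr4a3, total KO was above wild type in Sst-type and below it in Pvalb-type nuclei. In Sst-type nuclei it was at 10.5, 20.7, 7.54 and 26.2, with log2 ratios of 0.98 (0.38 to 1.62) in total KO, -0.47 (-1.34 to 0.37) in astrocyte KO and 1.32 (0.72 to 1.96) in neuron KO. In Pvalb-type nuclei it was at 20.9, 9.04, 5.78 and 14.9, with ratios of -1.21 (-1.78 to -0.66) in total KO, -1.86 (-2.65 to -1.13) in astrocyte KO and -0.49 (-1.01 to 0.025) in neuron KO. In Lamp5-type nuclei, which include neurogliaform cells, it was at 31.8, 30.3, 5.43 and 35.4, and astrocyte KO alone was low (-2.55, -3.65 to -1.57). Vip-type nuclei, few in number, had the highest inhibitory levels of Nr4a1 (88.3) and Nr4a3 (62.3) in wild type. This order did not hold for Nr4a1 in astrocyte KO, with 40.4 in Vip-type nuclei on 7 UMIs and 55.6 in nuclei with Cnr1 CCK-type markers. Differences between subclasses were not tested.

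Subicular or cortical nuclei with at least 2 UMIs of Foxp2, a transcription factor of deep-layer cortical neurons, were set against those with 0. Nr4a2 was higher in the Foxp2 nuclei of wild type (1.38-fold, 1.199 to 1.60), total KO (1.21-fold, 1.09 to 1.34) and neuron KO (1.36-fold, 1.199 to 1.55), while the interval of astrocyte KO spanned 1 (0.810-fold, 0.648 to 1.01). Nr4a1 was lower in the Foxp2 nuclei of all 4 libraries, at 0.733-fold to 0.808-fold. Foxp2 is also one of the markers of the gate. In the Foxp2 nuclei Nr4a2 was at 141, 177, 67.3 and 183 CPM, and in those without Foxp2 at 102, 146, 83.0 and 135. The astrocyte KO library was lowest in both groups.

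Depth differed between libraries, so shares of nuclei with a UMI were taken after thinning each nucleus to 1000 UMIs. In CA1, Nr4a3 was then found in 4.24% of nuclei in wild type (3.17% to 5.53%), 5.77% in total KO (4.86% to 6.79%), 3.10% in astrocyte KO (2.37% to 3.97%) and 9.31% in neuron KO (7.82% to 11.0%). Unthinned, the shares were 27.8%, 24.0%, 22.4% and 36.9%, at median depths of 11496, 6854, 8265 and 10051 UMIs. With a stricter marker gate the thinned shares of wild type and neuron KO were 6.69% and 6.77%. Nr4a2 was found in 4.15%, 5.81%, 3.62% and 6.65% of thinned CA1 nuclei and in 29.9%, 25.5%, 21.8% and 31.04% unthinned. The thinned wild-type interval (3.10% to 5.44%) overlapped those of total KO (4.90% to 6.83%), astrocyte KO (2.83% to 4.55%) and neuron KO (5.38% to 8.11%). Nr4a1 was found in 6.56%, 6.79%, 4.55% and 7.24%, and in 42.9%, 29.5%, 26.9% and 42.6% unthinned. Thinning left out 2 CA1 nuclei, both of total KO. Oligodendrocytes were taken as the background class, although they were not shown to lack these genes. Their thinned shares were between 0% and 1.47%, on 44 to 1091 nuclei a library with median depths of 1237 to 2097.5 UMIs. For the 388 wild-type oligodendrocytes, where Nr4a3 had a count of 0, the limit from 3 counts is 0.773% of nuclei with a UMI, and the upper Clopper-Pearson bound is 0.946%. In dentate granule neurons the thinned Nr4a3 shares were 0.598%, 1.14%, 0.273% and 0.847%. That of total KO (0.809% to 1.56%) was above its oligodendrocytes (0.0917%, 0.00232% to 0.510%), while the intervals of the other 3 libraries overlapped those of their oligodendrocytes. The intervals of wild type (0.299% to 1.07%), total KO and neuron KO (0.452% to 1.44%) overlapped, and no order of libraries is read from these shares. Unthinned they were 3.20%, 3.62%, 2.35% and 5.26% at median depths of 8165.5, 4656.5, 5964 and 7362 UMIs.

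Nr4a3 molecules were concentrated in a minority of nuclei. In CA1, nuclei with 3 or more Nr4a3 UMIs made up 6.31% of nuclei in wild type, 4.83% in total KO, 3.31% in astrocyte KO and 10.4% in neuron KO. They held 57.1%, 49.6%, 39.8% and 66.9% of the Nr4a3 UMIs, and the highest single nuclei had 23, 17, 16 and 31. These shares were not thinned, so depth enters them. In dentate granule neurons of neuron KO, 12 of 1541 nuclei held 55.9% of the UMIs, against 22.5% in 4 nuclei of wild type, 31.02% in 9 of total KO and 39.1% in 6 of astrocyte KO. The granule value of neuron KO therefore rests on few nuclei, the highest of which had 19 UMIs.

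The members were found in the same CA1 nuclei more often than in nuclei without them, at an equal depth of 2000 UMIs. Among wild-type CA1 nuclei with Nr4a3, 23.2% also had Nr4a2, against 6.75% of those without it. The pairs of values were 30.6% and 8.99% in total KO, 20.5% and 5.91% in astrocyte KO and 32.6% and 7.58% in neuron KO. Nr4a1 showed the same with Nr4a2, at 16.8% and 6.88% in wild type. Other activity-induced genes were also more frequent in Nr4a3 nuclei. Bdnf, the neurotrophin, was in 24.2% with and 8.67% without Nr4a3 in wild type, and in 32.6% and 7.84% in neuron KO. Arc, the synaptic immediate early gene, was in 19.2% and 4.74% in wild type. Creb1, a constitutive transcription factor, was in 14.1% and 15.0%, a difference within the interval of the first share (7.95% to 22.6%). These are nuclei of single libraries and describe those libraries.

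**Figure D4:**
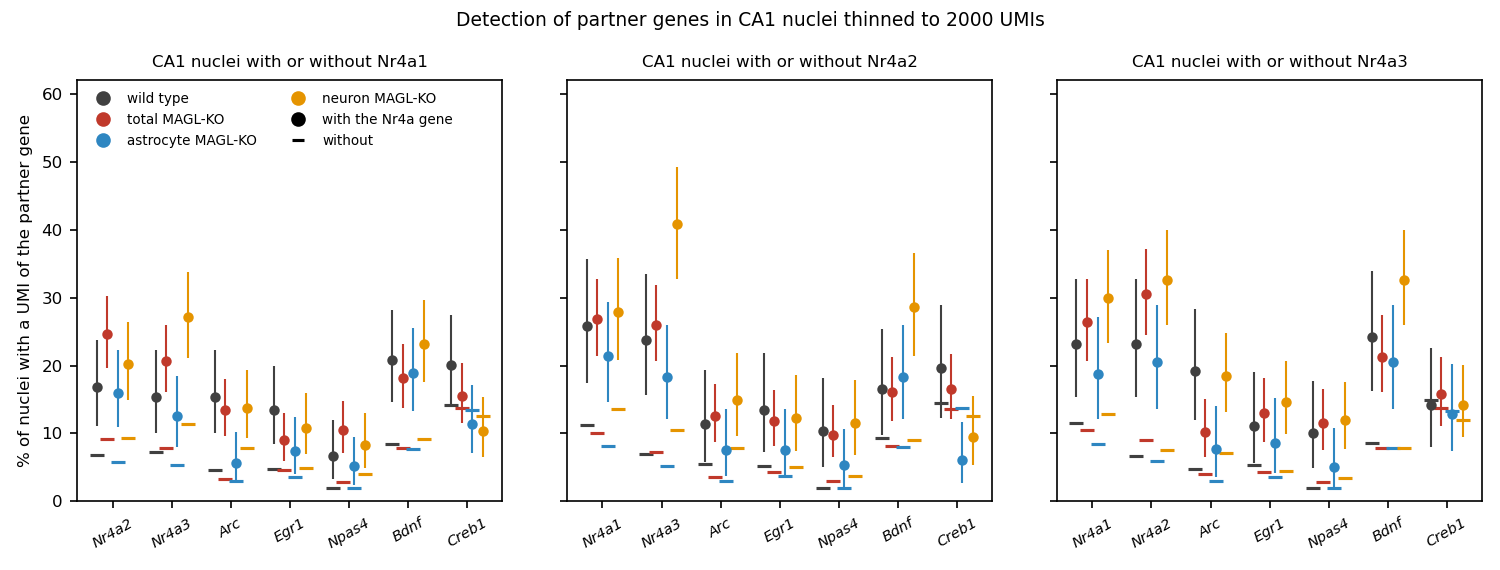
Percent of CA1 nuclei, thinned to 2000 UMIs, with a UMI of the partner gene named below, among nuclei with (points, 95% binomial intervals) or without (dashes) a UMI of the Nr4a member. Other Nr4a genes, Arc, Egr1, Npas4 and Bdnf have points above their dashes in every library, while Creb1 has points on either side; for Nr4a3 nuclei of wild type, Nr4a2 is at 23.2% against 6.75%.

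The genes around the family were followed in lists, with a gene counted as higher or lower when its ratio was at least 1.5-fold and its interval left out 1. Of 16 fast activity-induced regulators, 12 had at least 100 UMIs in CA1. There, 0 were higher and 2 lower in total KO (beside 2.26% and 4.73% of all genes), 0 and 6 in astrocyte KO (1.59% and 2.92%), and 2 and 2 in neuron KO (1.44% and 4.06%). The list medians were -0.21, -0.55 and 0.29 on the log2 scale, against -0.03, -0.03 and -0.02 for all genes. In astrocyte KO the lowest were Btg2 (-1.39, -1.76 to -1.03), an antiproliferative early gene, and Fos (-1.23, -1.79 to -0.69), the AP-1 subunit, and the highest were Jun (-0.15) and Fosb (-0.12). In neuron KO the highest were Fosb (0.95, 0.11 to 1.84) and Egr4 (0.63, 0.34 to 0.92), and the lowest Ier5 (-1.13) and Jun (-0.75). In total KO the ends were Ier5 (-1.15) and Arc (-0.59) below and Fosb (0.15) and Npas4 (0.40) above.

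In subicular or cortical neurons all 12 measured fast regulators were lower in astrocyte KO, beside 3.4% of all genes, with a median of -1.18. Fos (-2.17) and Egr3 (-1.84) were lowest and Npas4 (-0.76) and Ier5 (-0.64) nearest to wild type. In the same class the counts were 1 higher and 1 lower in total KO (1.47% and 4.37% of genes) and 3 and 1 in neuron KO (2.01% and 3.63%), where Npas4 (1.02) and Egr4 (0.85) were highest and Jun (-0.78) and Ier5 (-0.31) lowest. In inhibitory neurons 7 of 12 were lower in astrocyte KO (beside 4.35%), with a median of -1.07. Total KO had 2 higher and 2 lower there (2.86% and 5.91%) and neuron KO 2 and 1 (2.06% and 5.01%). Of 9 measured in CA2/CA3 neurons, 3 were higher and 1 lower in neuron KO (2.09% and 3.61%), 0 and 3 in astrocyte KO (1.54% and 2.72%), and 0 and 1 in total KO (1.94% and 4.24%). Of 11 measured in granule neurons, 2 were higher in neuron KO, Arc (0.98, 0.21 to 1.77) and Npas4 (0.90, 0.12 to 1.70), and 1 was lower (1.48% and 4.38%). Total KO had 1 higher there, Klf4 (0.89, 0.073 to 1.74), and 0 lower (1.18% and 5.96%), and astrocyte KO 0 and 1 (1.99% and 4.37%). The astrocyte KO library, lowest for most Nr4a values, thus had low levels of many other fast genes, while total KO did not have high ones in CA1.

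**Figure D5:**
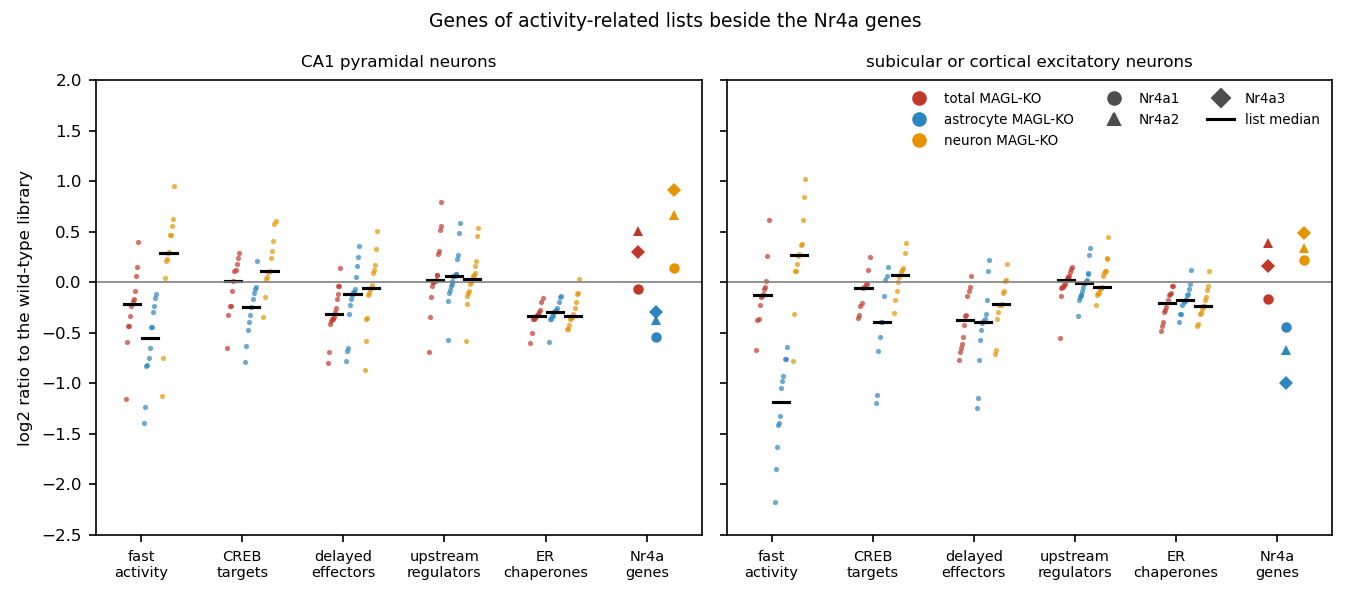
Log2 ratios to wild type of single genes (small points) and list medians (bars) for 5 lists, beside the 3 Nr4a members (large symbols), in CA1 (left) and subicular or cortical neurons (right). The fast regulators of astrocyte KO lie below 0 in both classes, with medians of -0.55 and -1.18, while the upstream regulators center near 0 in every library.

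Of 11 CREB targets and feedback genes in CA1, 0 were called in total KO (beside 2.26% of all genes higher and 4.73% lower), 1 was lower in astrocyte KO (beside 2.92% of all genes) and 1 higher in neuron KO (1.44%), with medians of 0.01, -0.24 and 0.11. Dusp1 (0.61) and Per1 (0.58) were highest in CA1 of neuron KO, and Sik1 (-0.78) and Dusp1 (-0.63) lowest in astrocyte KO. Pde4d, a cAMP phosphodiesterase, was the lowest of the list in CA1 of neuron KO (-0.34, -0.38 to -0.31), followed by Crem (-0.15). In inhibitory neurons 2 of 11 genes of this list were higher in total KO, beside 2.86% of all genes. Of 14 delayed effectors in CA1, 0 were higher, beside 2.26%, 1.59% and 1.44% of all genes. Lower were 2, 3 and 1, beside 4.73%, 2.92% and 4.06% of all genes, and the list medians were -0.32, -0.11 and -0.06. In inhibitory neurons 0 of 13 were higher, beside 2.86%, 2.18% and 2.06% of all genes. Lower were 3, 6 and 5 of 13, beside 5.91%, 4.35% and 5.01% of all genes, with medians of -0.33, -0.51 and -0.47. In granule neurons of astrocyte KO, 3 of 14 were higher (beside 1.99%) and 1 was lower (beside 4.37%), with a median of 0.07. The neuropeptide precursor Scg2 was lower in CA1 of all 3 libraries (-0.80, -0.68 and -0.58). Upstream regulators such as Creb1 and the kinases had CA1 medians of 0.02, 0.06 and 0.03 over 16 genes, although the activity-dependent factor Mef2c was there at 0.31 in total KO, -0.57 in astrocyte KO and -0.58 in neuron KO. Of the 16, 1 was higher and 1 lower in total KO, beside 2.26% and 4.73% of all genes. Astrocyte KO had 1 higher and 0 lower (1.59% and 2.92%), and neuron KO 0 and 0 (1.44% and 4.06%). Partners and corepressors had CA1 medians of 0.03, 0.03 and -0.03 over 10 genes, with Rxra at 0.82 (0.02 to 1.67) in total KO.

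Endoplasmic reticulum chaperones, described elsewhere as genes that Nr4a proteins raise, had 0 members called higher in any class or library. In CA1, 0 of 12 were higher, beside 2.26%, 1.59% and 1.44% of all genes, and 1, 1 and 0 were lower, beside 4.73%, 2.92% and 4.06%. Their medians were -0.33, -0.29 and -0.33. Hspa5, the chaperone BiP, was at -0.59 in astrocyte KO and -0.47 in neuron KO, and Creld2 at -0.60 and Calr at -0.51 in total KO. In the other 4 classes the medians lay between -0.31 and -0.17 in all 3 knockout libraries, with 0 of 12 higher beside 1.18% to 2.86% of all genes. Of the 12, 1 was lower in CA2/CA3 of neuron KO, beside 3.61%, and 0 were lower in the other combinations of these 4 classes and the libraries, beside 2.72% to 5.96%. Of the 6 dopaminergic genes known as Nr4a2 targets 1 was measured in CA1, Slc18a2, at -0.44, -0.00 and -0.46 with intervals that span 0. In total KO the 1 measured gene of this list was lower in dentate granule (-0.81) and CA2/CA3 neurons (-0.80), beside 5.96% and 4.24% of all genes. It was called neither higher nor lower in granule neurons of astrocyte KO (-0.27) and neuron KO (-0.22). Genes of heat shock and tissue dissociation, which respond to handling, had CA1 medians of -0.20, -0.52 and -0.33 over 6 genes, led by Hspa8 (-0.75, -1.04 and -1.09) and Hsp90aa1 (-0.36, -0.67 and -0.78). Of the 6, 1, 3 and 2 were lower, beside 4.73%, 2.92% and 4.06% of all genes. In inhibitory neurons, where Nr4a2 was lower in all 3 libraries and Nr4a3 in astrocyte KO, their medians were -0.29, -0.55 and -0.66, with 1, 3 and 4 of 6 lower beside 5.91%, 4.35% and 5.01%. In subicular or cortical neurons, where Nr4a2 and Nr4a3 were lower in astrocyte KO, the medians were -0.33, -0.57 and -0.44, with 1, 2 and 2 of 5 lower beside 4.37%, 3.4% and 3.63%. In dentate granule neurons, where Nr4a2 and Nr4a3 were higher in total and neuron KO, the medians were -0.20, -0.41 and -0.32. Of 6 genes measured there, 0, 2 and 2 were lower, beside 5.96%, 4.37% and 4.38% of all genes. The part of the heat shock and dissociation genes in the Nr4a values was not tested. Among 12 other orphan and steroid receptors the CA1 medians were 0.09, 0.01 and 0.06, and Rorb and Nr2f2 (0.75, 0.53 and 0.23) were highest in every library.

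Genes whose levels over the 20 sums (4 libraries by 5 classes) were most like each member were found among 13314 genes with at least 500 UMIs. The measure was Pearson's r of log2(CPM + 1), and it reflects mostly differences between classes, since the sums share libraries. Nr4a1 was most like Etv5 (0.980), Sel1l3 (0.978), Ptpru (0.976), Samd5 (0.974) and Syt4 (0.974). Nr4a2 was most like Dennd4a (0.972), Sirpa (0.964), Vxn (0.949), Pdlim1 (0.942) and Gpr45 (0.933), and Nr4a3 like Dusp5 (0.943), Cacna1i (0.938), Dyrk2 (0.925), Twist2 (0.923) and Rap1b (0.918). Between the members r was 0.625 for Nr4a1 and Nr4a2, 0.757 for Nr4a1 and Nr4a3 and 0.693 for Nr4a2 and Nr4a3, and the members ranked 285 to 1452 of the 13314 genes in likeness to each other. After the mean of each class was taken off, the 3 values were 0.749, 0.753 and 0.829, and the ranks were 16 to 124. These values rest on differences between the same 4 libraries, repeated over the 5 classes, so the 20 sums are not independent points.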

How the data were processed

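Nuclei of mouse hippocampus were freed with detergent, cleaned on an iodixanol gradient and run on the 10x Multiome kit, per the labels' protocols, and only the RNA was used here. The files hold whole UMI counts for each gene in each barcode, as deposited, for 4 libraries, made with Cell Ranger ARC 2.0.0 on mm10 per the submitters' processing notes. Deposited barcodes held from 399 to 5996 of the shared genes, with a minimum of 399 or 400 and a maximum of 5992 to 5996 in each library. No nucleus outside that range enters any value, and the effect on the libraries was not tested. For introns, strand and annotation the settings used were not given in the sources used here. Every label was used as given, and 0 other value columns were left unmapped.

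Barcodes with at least 500 genes and at most 5% mitochondrial UMIs were kept, and doublets were called with Scrublet in scanpy 1.11.5 at an assumed rate of 0.8% per 1000 barcodes. Each nucleus was assigned to a class by marker scores, with a margin of 0.25 and a minimum of 0.3 chosen after seeing the data. For each class the UMIs of a library were added up and divided by their total. CPM have exact Poisson intervals, ratios exact conditional binomial intervals and shares Clopper-Pearson intervals (scipy 1.17.1), all at 95%. UMIs are not independent animals, and intervals cover counting error only. Genes counted in lists had at least 100 UMIs in the class over the 4 libraries. For lists, the 2 highest and 2 lowest ratios are named; likeness names the 5 highest r. The members and lists were chosen with earlier results of these data known. Sequences are from RefSeq (GRCm38.p6). The scripts were tested on simulated data. Alternatives were a stricter gate, Leiden clusters, doublets kept, thinning, median-of-ratios scaling, at least 1000 genes, 1 sex only, and other thresholds. Female nuclei alone were added after seeing the data.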

Additional observations from a re-analysis of the deposited data

Results flagged for a closer look

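Nr4a2 had ratios of opposite sign in inhibitory and excitatory neurons of the same library, which is what singled it out. In total KO its log2 ratio to wild type was 0.666 in dentate granule, 0.511 in CA1 and 0.387 in subicular or cortical neurons, and -0.709 in inhibitory neurons. In neuron KO it was 0.593 in dentate granule, 0.66 in CA1, 0.676 in CA2/CA3 and 0.34 in subicular or cortical neurons, and -0.753 in inhibitory neurons. With called doublets kept the inhibitory ratio of total KO was 0.24, and in male nuclei the dentate granule ratio of neuron KO was 0.072. With 1 library for each genotype the difference between classes was not tested, and the inhibitory values rest on 76 to 104 UMIs a library. Of the 97 UMIs in wild type, 58 were in Pvalb-type nuclei, and 6 nuclei with 3 or more held 37. In Pvalb-type nuclei the total and neuron KO ratios were -0.84 and -2.28. In Sst-type nuclei they were 0.76 and 0.78, and in Lamp5-type nuclei -0.21 and 0.68, and these Sst-type and Lamp5-type intervals span 0. Nuclei with Cnr1 CCK-type markers were below wild type in both libraries, on few UMIs.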

How the results depend on the processing

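All 45 log2 ratios moved by less than their counting interval with at least 1000 genes per nucleus and with median-of-ratios scaling. No paired analysis was possible because each genotype has 1 library, and leaving out replicates was not done for the same reason. The cause of the shifts below was not tested, except that other thresholds change which genes are counted. Fewest UMIs stood behind Nr4a2 in inhibitory neurons, from 31 to 104 a library, and Nr4a1 in dentate granule neurons, from 52 to 89.

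Of the ratios whose own interval left out 0, 2 changed sign: Nr4a2 in inhibitory neurons of total KO was 0.24 with doublets kept, and Nr4a3 in inhibitory neurons of neuron KO was -0.11 in male nuclei. Other sign changes were in ratios whose interval spanned 0. With doublets kept, Nr4a1 in dentate granule neurons of total KO was 0.77. With Leiden clusters, CA1 gave 0.28 for Nr4a1 in neuron KO, 0.35 and -0.53 for Nr4a2 in total and astrocyte KO, and 0.13 for Nr4a3 in total KO. CA2/CA3 then gave 0.62 and 1.17 for Nr4a2 in total and neuron KO, subicular or cortical neurons 0.44 and 0.67 for Nr4a3 in the same libraries, and inhibitory neurons -1.51 for Nr4a2 in neuron KO and -0.12 and 0.11 for Nr4a3 in total and neuron KO. With the stricter gate, Nr4a3 in CA1 was 0.17 in total and -0.48 in astrocyte KO. In CA2/CA3 Nr4a1 was -0.016 in astrocyte KO and Nr4a2 1.06 in neuron KO, and in subicular or cortical neurons Nr4a2 was 0.25 in total and 0.17 in neuron KO. Thinned to 1000 UMIs, Nr4a1 in CA2/CA3 of astrocyte KO was -0.64.

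In male nuclei of neuron KO, dentate granule ratios were -0.23 for Nr4a1, 0.072 for Nr4a2 and 0.64 for Nr4a3, Nr4a3 in CA1 was 0.66, and CA2/CA3 ratios were 0.13 for Nr4a2 and 0.12 for Nr4a3. Subicular or cortical ratios there were 0.079 for Nr4a1, 0.51 for Nr4a2 and 0.16 for Nr4a3. Male nuclei of astrocyte KO gave -0.066 for Nr4a3 in CA1 and -0.33 for Nr4a2 in subicular or cortical neurons, and those of total KO 0.51 for Nr4a2 in the latter class and -0.35 for Nr4a3 in inhibitory neurons. In female nuclei of neuron KO, dentate granule ratios were 1.01, 1.02 and 2.74 for Nr4a1, Nr4a2 and Nr4a3, Nr4a3 was 1.08 in CA1, 0.60 in CA2/CA3, 0.69 in subicular or cortical and 0.82 in inhibitory neurons, and Nr4a2 was 1.15 in CA2/CA3 and 0.18 in subicular or cortical neurons. Female nuclei of astrocyte KO gave -1.26 for Nr4a2 in subicular or cortical neurons and -0.53 for Nr4a1 in inhibitory neurons.

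The Nr4a3 share with doublets kept was 0.267% in dentate granule neurons of wild type and 7.23% in CA1 of neuron KO. With the stricter gate it was 6.69% and 6.77% in CA1 of wild type and neuron KO, so their order by share does not hold beyond counting error there. At 2000 UMIs it was 1.58%, 0.826% and 1.51% in dentate granule neurons of total, astrocyte and neuron KO. CA1 shares in the order wild type, total, astrocyte and neuron KO were then 13.6%, 11.2%, 8.71% and 14.3% for Nr4a1, 9.46%, 10.9%, 7.002% and 12.2% for Nr4a2 and 7.87%, 9.15%, 6.48% and 13.2% for Nr4a3.

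Genes past 1.5-fold in total, astrocyte and neuron KO numbered 993, 940 and 885 in dentate granule neurons, 2491, 2331 and 2310 with a minimum of 20 UMIs, and 269, 158 and 139 past 2-fold. CA1 had 1072, 700 and 865, then 2551, 2053 and 2278, then 248, 126 and 140. CA2/CA3 had 870, 585 and 840, then 2363, 1966 and 2291, then 176, 109 and 127. Subicular or cortical neurons had 781, 830 and 814, then 2132, 2182 and 2185, then 146, 136 and 123. Inhibitory neurons had 1338, 1122 and 1137, then 2888, 2670 and 2708, then 343, 245 and 215.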
